A study of Homo sapiens with 6 samples.

Results

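The genes described here encode autotaxin (ENPP2), the receptors for its product lysophosphatidic acid (LPAR1 to LPAR6) and the lipid phosphate phosphatases PLPP1 to PLPP3. They were chosen by gene symbol as 1 signalling system, and every probe set that the platform annotation gave to a single one of them was read out, dim ones included. That rule found 18 of the 54613 probe sets, from 9 of the 10 genes. LPAR5 has no such probe set and was not analysed here. No measured value enters the rule, but the system was picked with earlier results of these arrays known, among them the contrast between the sorts. The p-values of its members are therefore given as descriptions.

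Gene expression had been measured on Affymetrix arrays in COLO-320DM, an established human colorectal cancer line, after sorting by CD44, the hyaluronan receptor by which stem-like colorectal cancer cells are often sorted. The 6 arrays form 2 groups, 3 of CD44-positive and 3 of CD44-negative cells of this one line. Neither group was treated, and total RNA was used for both. The labels number the arrays of each group 1 to 3, do not say that they came from separate cultures and do not describe the sort gates, so the spread behind the p-values is that of these arrays and may be technical.

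Autotaxin is a secreted lysophospholipase D that cleaves lysophosphatidylcholine outside the cell to lysophosphatidic acid. This lipid binds G protein-coupled receptors, of which LPAR1, LPAR2 and LPAR3 belong to the EDG family and LPAR4, LPAR5 and LPAR6 to a family related to the P2Y receptors. They couple to G proteins that drive calcium release and transcription of immediate early genes. The lipid phosphate phosphatases are membrane enzymes that end the signal by removing the phosphate of lysophosphatidic acid at the cell surface.

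The regulatory sequence of the receptors differs in a way the arrays' values can be set beside. From RefSeq start sites (GRCh38.p14), 13 windows of the 250 bases before a start were read, for 8 of the 10 genes. No window was read for ENPP2 or PLPP1, so the counts below leave autotaxin out. One window is printed for a receptor that lay above the dim limit on all 6 arrays, LPAR3, and one for a receptor that lay under it on all 6, LPAR4. The dim limit is the 30th percentile of the mean levels of all genes, 5.12 on the log2 scale, and values under it are read only as low. The windows are chr1:84893207-84893456 on the minus strand for LPAR3 and chrX:78747470-78747719 on the plus strand for LPAR4, written 5′ to 3′ with CG dinucleotides in capitals.
LPAR3: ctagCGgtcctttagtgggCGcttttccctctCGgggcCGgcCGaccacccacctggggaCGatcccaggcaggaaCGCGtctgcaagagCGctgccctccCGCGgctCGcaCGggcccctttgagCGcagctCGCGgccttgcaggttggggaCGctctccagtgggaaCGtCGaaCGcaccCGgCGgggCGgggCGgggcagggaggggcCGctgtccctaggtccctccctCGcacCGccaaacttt
LPAR4: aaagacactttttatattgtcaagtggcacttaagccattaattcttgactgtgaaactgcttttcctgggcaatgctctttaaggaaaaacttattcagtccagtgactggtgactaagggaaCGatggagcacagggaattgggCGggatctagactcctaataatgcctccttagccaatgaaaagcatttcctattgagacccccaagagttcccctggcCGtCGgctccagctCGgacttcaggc
The LPAR3 window holds 27 CG dinucleotides and the LPAR4 window 5, against a median of 11 and quartiles of 3 and 23 over all 35116 RefSeq windows of this length. LPAR2 has 30, LPAR6 has 2, LPAR5 has 1 and PLPP3 has 7. The 6 windows of LPAR1, from 6 start sites, hold between 2 and 39. The count did not sort the genes by level, because the window of PLPP2, which was dim on all arrays, holds 32. TATAAA, read on both strands, lies in 2 of the 13 windows, those of LPAR4 and of 1 LPAR1 start, and in 10.7% of all windows. CTTTGAT, a core of TCF/LEF sites read on both strands, lies in none of the 13 and in 2.26% of all.

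The arrays were alike in scale, with median intensities of 44.9 to 46.5 and correlations of log2 values of 0.991 to 0.997. The sort marker CD44 stood at 7.86, 8.12 and 7.11 in the CD44-positive arrays and at 5.41, 5.29 and 4.99 in the CD44-negative arrays (log2, replicates 1 to 3). Of 7 markers of the line and of intestinal epithelium, 5 lay above the dim limit on average, among them CDX2 and KRT18, while EPCAM and CDH1 lay under it. In the other marker lists, 6 of 8 for fibroblasts, 1 of 4 for adipocytes and 2 of 4 for endothelium lay above it on average. So did 3 of the 4 measured for leukocytes and 2 of 5 for neuroendocrine cells. By the definition of the limit, 13842 of all 19775 genes lie above it, so these counts are not read as the presence of a cell type.

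Autotaxin varied more than any other member. The means of its same-numbered arrays lay further apart than the means of the sorts. This held on the brightest probe set of every other member except LPAR4 and PLPP2. A span is taken over 3 means and a difference over 2, so this alone does not set autotaxin apart. On its brighter probe set, ENPP2 stood at 8.10, 9.15 and 6.60 in CD44-positive replicates 1, 2 and 3 and at 5.93, 8.61 and 6.10 in CD44-negative replicates 1, 2 and 3 (log2). Both replicates numbered 2 were the highest of their group, and the groups overlapped. The other probe set gave 7.17, 8.14 and 6.11 in the CD44-positive arrays and 5.25, 7.81 and 5.73 in the CD44-negative arrays. It placed the 6 arrays in the same order, with CD44-negative replicate 1 the lowest on both. After each profile was centred on its mean, the 2 probe sets differed by a root mean square of 0.23 over the 6 arrays.

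Between the sorts, ENPP2 averaged 7.95 ± 1.28 in CD44-positive and 6.88 ± 1.50 in CD44-negative cells (log2, SD, n = 3 each). The difference of 1.07 ± 0.78 (SE, 95% interval -0.70 to 2.85), a 2.10-fold ratio, did not pass limma's test over all probe sets (adjusted p = 1.00). Same-numbered arrays differed by 2.18, 0.54 and 0.50, so CD44-positive exceeded CD44-negative in 3 of 3 pairs, by 4.52-fold in pair 1 and by 1.45-fold and 1.41-fold in pairs 2 and 3. With the replicate number as a block the SE was 0.29 and the interval 0.42 to 1.73, and limma gave an adjusted p of 0.544. The second probe set differed by 0.88 ± 0.67 without the block, with pair values of 1.91, 0.34 and 0.38. In RNA from sorted populations, fewer cells with the transcript and less of it per cell cannot be told apart. The unblocked difference of the brighter probe set was 0.47 without CD44-positive replicate 2, 0.60 without CD44-negative replicate 1 and 0.68 without CD44-negative replicate 3, against 1.75 without CD44-positive replicate 3 and 1.94 without CD44-negative replicate 2, and none of these passed. The blocked difference was 0.52 without pair 1.

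**Figure D1:**
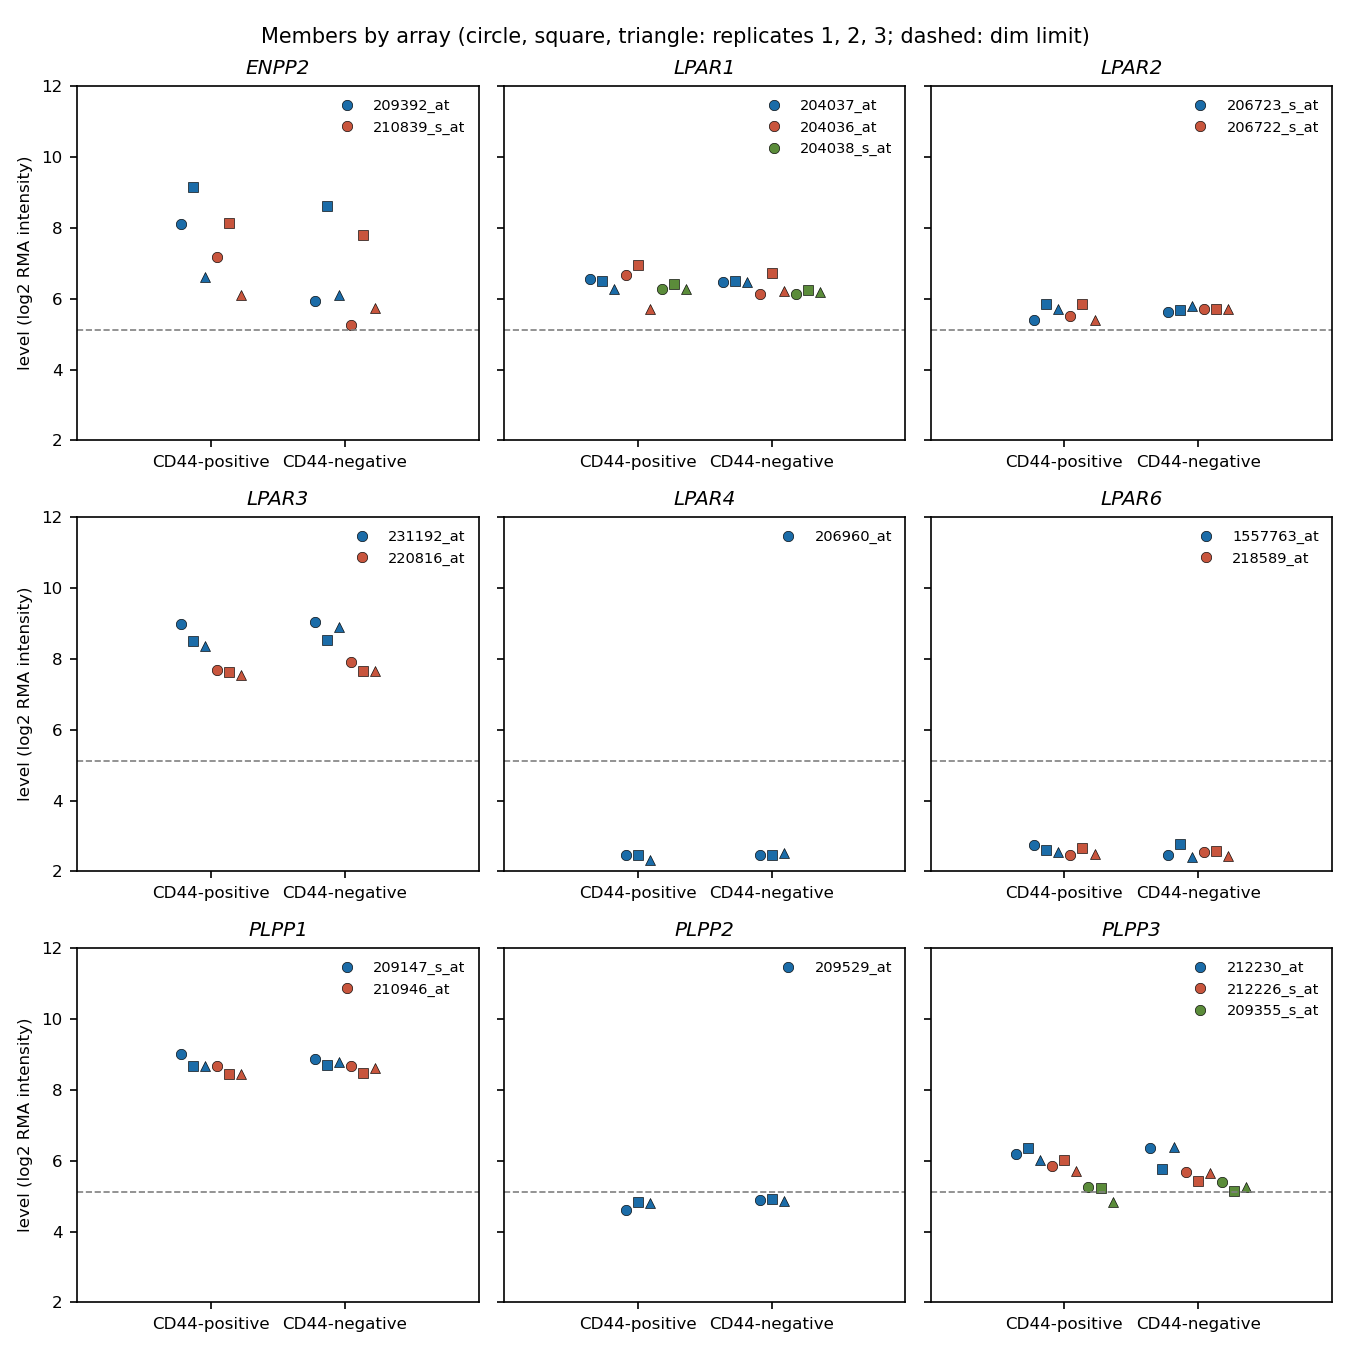
Level (log2 RMA intensity) of every member probe set on each array, with CD44-positive arrays left and CD44-negative arrays right in each panel, colours for probe sets, symbols for replicate numbers and a dashed line at the dim limit of 5.12. ENPP2 spreads from 5.93 to 9.15 on its brighter probe set, while LPAR4 and LPAR6 lie under the line on all arrays.

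Averaged over the sorts, ENPP2 stood at 7.02, 8.88 and 6.35 for replicate numbers 1, 2 and 3, a span of 2.53 or 5.78-fold between numbers 2 and 3. Only EGR1 (3.78) and SELENOP (3.17) had a larger span among the 13842 genes above the dim limit, whose median span was 0.21. Spans of at least 1 occurred in 1.08% of these genes. The replicate number was tested as a term of the blocked fit, a test chosen after the values were seen. It passed for both ENPP2 probe sets (limma's F test, adjusted p = 0.0177 and 0.0250) and for no other member, which makes 2 of 18 probe sets against 4.16% of all. The brighter probe set passed with any single array left out, at adjusted p from 0.00021 to 0.0243. It did not pass without pair 2 (adjusted p = 0.226) or with a variance trend and robust moderation (0.251). The second probe set failed in the same 2 settings, at 0.610 and 0.242.

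Some genes of the other marker lists differed by replicate number or between the sorts. The summed intensity of the 5 neuroendocrine markers was 115, 197 and 114 in CD44-positive replicates 1, 2 and 3, and 95.1, 171 and 104 in CD44-negative replicates 1, 2 and 3. Within that list ENO2, neuron-specific enolase, stood at 6.58 and 6.36 in the replicates numbered 2 and between 4.01 and 4.88 in the other arrays (limma's F test, adjusted p = 0.00245). SYP, synaptophysin, did not follow ENO2, with pair means of 5.46, 5.45 and 5.51. CHGB was highest for number 2 as well, with pair means of 4.30, 4.97 and 4.33 (limma's F test, adjusted p = 0.0285). It lay under the dim limit on all arrays, as did CHGA and INSM1, so its size is not read. The summed fibroblast markers were 3703, 1511 and 3555 in the CD44-positive and 2061, 1198 and 2328 in the CD44-negative arrays, and most of each sum was COL3A1, a fibrillar collagen. COL3A1 stood at 11.63, 10.02 and 11.60 in the CD44-positive and at 10.61, 9.45 and 10.85 in the CD44-negative arrays, lowest for number 2 (limma's F test, adjusted p = 0.00450). The span of its pair means was 1.49. The other fibroblast markers above the dim limit varied less and did not share a single order. THY1 was also lowest for number 2, with a span of 0.13, and COL1A2 had pair means of 5.19, 5.19 and 5.35. DCN (pair means 5.66, 5.73 and 5.61) and PDGFRB (span 0.067) were highest for number 2. COL1A1 (7.86, 7.79 and 7.65) was lowest for number 3. None of these other markers passed by replicate number (limma's F test, adjusted p from 0.446 to 0.883).

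Between the sorts, COL3A1 was higher in the CD44-positive array of 3 of 3 pairs, as ENPP2 was, by 1.02, 0.57 and 0.75 (limma with the replicate block, adjusted p = 0.0837). Its groups overlapped. LUM, the proteoglycan lumican, stood at 5.63, 4.18 and 3.84 in the CD44-positive and at 2.36, 2.79 and 2.44 in the CD44-negative arrays. Its groups did not overlap, but only CD44-positive replicate 1 lay above the dim limit (limma with the block, adjusted p = 0.156). COL1A2 was higher without overlap, by 0.31 (adjusted p = 0.529 with the block), and COL1A1 lower without overlap, by a difference of -0.23 (adjusted p = 0.733 with the block). Neither LUM nor any of these collagens passed in the planned fit without the block. The other fibroblast markers above the limit overlapped between the sorts, with differences of -0.13 for PDGFRB, -0.036 for DCN and 0.052 for THY1. PDGFRA was under the limit on all arrays. Over all genes, the groups did not overlap in 6.25%. EPCAM, the epithelial adhesion molecule, stood at 4.49, 4.63 and 4.08 in the CD44-positive and at 4.90, 4.98 and 4.74 in the CD44-negative arrays, all dim and without overlap. Adipocyte markers, of a cell type known for autotaxin, summed to 99.6 to 107 in CD44-positive and 96.0 to 100.2 in CD44-negative arrays, with ADIPOQ, LPL and FABP4 under the limit. PLIN1, which lay above it, was higher in CD44-positive arrays without overlap, by 0.19 (limma with the block, adjusted p = 0.791). Of the neuroendocrine markers above the limit, SYP was higher without overlap, by 0.17 (limma with the block, adjusted p = 0.813), and ENO2 overlapped. Endothelial sums were 137 to 158 in CD44-positive and 142 to 149 in CD44-negative arrays, with CDH5 and KDR under the limit. Leukocyte sums were 278 to 284 in CD44-positive and 273 to 312 in CD44-negative arrays, with CD14 under it. Their part in the ENPP2 values was not tested.

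The 5 genes above the dim limit whose centred profiles lay nearest to that of ENPP2 over the 6 arrays were CASD1, a sialic acid O-acetyltransferase (root mean square difference 0.23), GPX3, the secreted glutathione peroxidase (0.28), LDB2, a LIM domain binding cofactor (0.42), CDKN1C, the p57 cell cycle inhibitor (0.43), and GAP43, a growth cone protein (0.44). CASD1 stood at 5.71, 6.74 and 4.81 in the CD44-positive and at 3.67, 6.46 and 3.62 in the CD44-negative arrays, so its lowest values were dim. GPX3 stood at 8.02, 9.68 and 7.09 in the CD44-positive and at 6.63, 9.11 and 6.90 in the CD44-negative arrays. All 5 were highest in the replicates numbered 2, which largely follows from their choice by likeness to ENPP2. In LDB2 and GAP43 the CD44-negative array of that number was the higher of the 2.

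**Figure D2:**
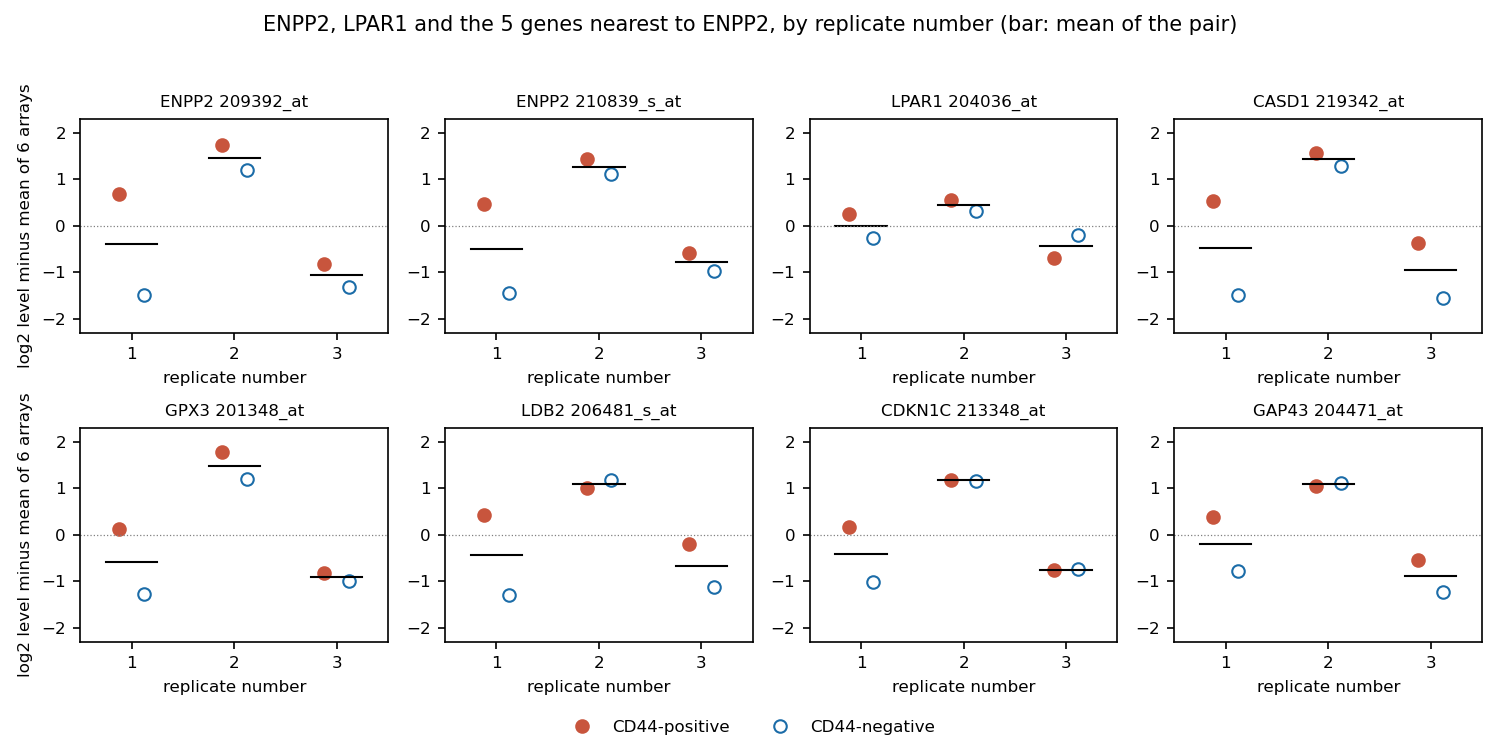
Log2 level minus the mean of the 6 arrays (vertical axis) by replicate number (horizontal axis) for both ENPP2 probe sets, the most variable LPAR1 probe set and the 5 genes nearest to ENPP2, with filled points for CD44-positive arrays, open points for CD44-negative arrays and a bar for the mean of each pair. Replicate number 2 is highest in every panel, which for the 5 nearest genes largely follows from their choice by likeness to ENPP2. The gap between the sorts in ENPP2 is widest in number 1, at 2.18.

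Among the receptors, LPAR1, the most widely expressed one, was read by 3 probe sets that did not move together. The brightest lay at 6.56, 6.49 and 6.26 in the CD44-positive and at 6.47, 6.50 and 6.47 in the CD44-negative arrays, a difference of -0.040 with a 95% interval of -0.28 to 0.20. The second ranged more widely, at 6.65, 6.95 and 5.72 in the CD44-positive and 6.14, 6.73 and 6.21 in the CD44-negative arrays. It was highest in the replicates numbered 2, as ENPP2 was, with pair means of 6.40, 6.84 and 5.96, but its replicate term did not pass (limma's F test, adjusted p = 0.0952). Its pairs differed between the sorts by 0.51, 0.22 and -0.49. The third separated the groups by a narrow margin, at 6.26 to 6.41 in CD44-positive and 6.13 to 6.26 in CD44-negative arrays, with a difference of 0.13 ± 0.09 (SE, limma, adjusted p = 1.00).

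LPAR2, a receptor studied in colon cancer for its link to migration and growth, lay just above the dim limit on all arrays. Its brighter probe set gave 5.41, 5.85 and 5.71 in CD44-positive and 5.62, 5.69 and 5.80 in CD44-negative cells, a difference of -0.045 (95% interval -0.34 to 0.25). The other differed by -0.13 (-0.41 to 0.15). Both were inside the spread between replicates.

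LPAR3, which prefers unsaturated forms of the lipid, lay well above the dim limit. It stood at 8.98, 8.49 and 8.37 in the CD44-positive and at 9.02, 8.53 and 8.91 in the CD44-negative arrays on its brighter probe set. The other gave 7.67, 7.63 and 7.54 in CD44-positive and 7.90, 7.67 and 7.65 in CD44-negative arrays. CD44-positive was the lower array in 3 of 3 pairs on both probe sets, by between 0.033 and 0.54, and the groups overlapped on both. The differences of -0.20 ± 0.18 and -0.12 ± 0.10 (SE) did not pass (limma, adjusted p = 1.00 each, and 0.837 and 0.864 with the replicate block).

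LPAR4 and LPAR6 were dim on all 3 of their probe sets. LPAR4 lay between 2.33 and 2.47 in CD44-positive and between 2.47 and 2.51 in CD44-negative arrays. LPAR6 lay between 2.55 and 2.75 in CD44-positive and between 2.40 and 2.77 in CD44-negative arrays on its brighter probe set. What these arrays can resolve at such levels was not tested, and no difference is read from them.

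Of the phosphatases, PLPP1, which acts on a broad range of lipid phosphates, lay well above the dim limit. Its brighter probe set gave 9.02, 8.68 and 8.66 in CD44-positive and 8.86, 8.70 and 8.77 in CD44-negative arrays, a difference of 0.0075 with a 95% interval of -0.26 to 0.28. PLPP2 was dim throughout, at 4.61, 4.82 and 4.81 in CD44-positive and 4.88, 4.92 and 4.86 in CD44-negative cells, where every CD44-positive value lay under every CD44-negative one. Since all 6 values lie under the dim limit, no size is read from them.

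PLPP3, which limits lysophosphatidic acid signalling in blood vessels, was read by 3 probe sets that disagreed in sign. The brightest gave 6.20, 6.37 and 6.01 in CD44-positive and 6.36, 5.75 and 6.40 in CD44-negative arrays, a difference of 0.022 with pair values of -0.16, 0.61 and -0.39. The second gave 5.86, 6.02 and 5.72 in CD44-positive and 5.67, 5.43 and 5.64 in CD44-negative arrays. There the groups did not overlap, and the difference was 0.28 ± 0.11 (SE, 95% interval 0.023 to 0.55, limma, adjusted p = 1.00). The third, close to the dim limit, differed by -0.16 ± 0.14.

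**Figure D3:**
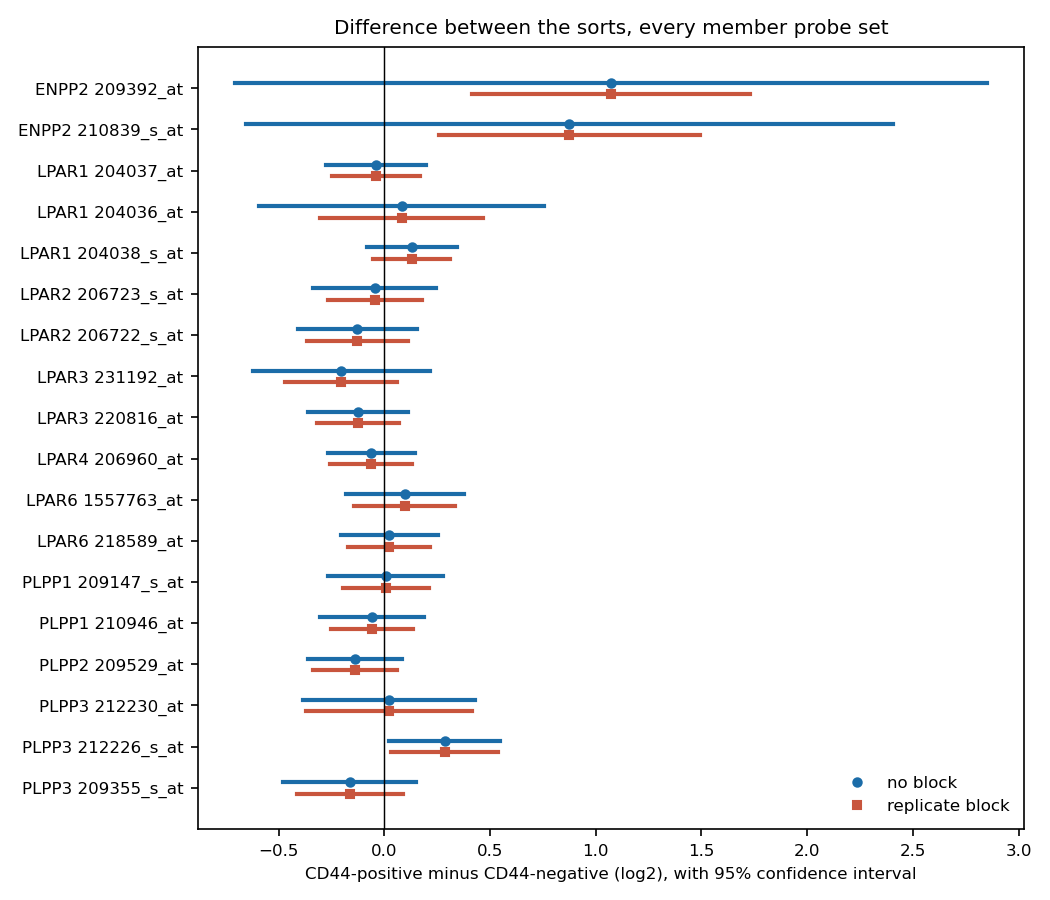
CD44-positive minus CD44-negative difference (log2, horizontal axis) with its 95% confidence interval for every member probe set (rows), from limma without the replicate block (circles) and with it (squares). The 16 probe sets other than those of ENPP2 lie between -0.20 and 0.28, and the ENPP2 intervals exclude 0 only with the block.

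Over all 18 probe sets, none passed the test between the sorts with or without the replicate block, where 0.00916% and 0.0513% of all probe sets did. At an unadjusted p under 0.05 there was 1 without the block, the second PLPP3 probe set, against 2.35% of all. With the block there were 3, that one and both of ENPP2, against 6.40% of all. The groups did not overlap in 3 of the 18, 2 higher (the third LPAR1 and the second PLPP3 probe set) and 1 lower (PLPP2, dim on all arrays) in CD44-positive cells, against 6.73% of all probe sets (3.41% higher and 3.32% lower). In 7 of the 18 all 3 pairs had the same sign, against 27.1% of all. Counted by sign alone 9 were higher and 9 lower, with a median difference of -0.016, beside -0.00051 over all probe sets. In 16 of the 18 the difference was under 0.3 in size, as it was in 97.7% of all probe sets.

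**Figure D4:**
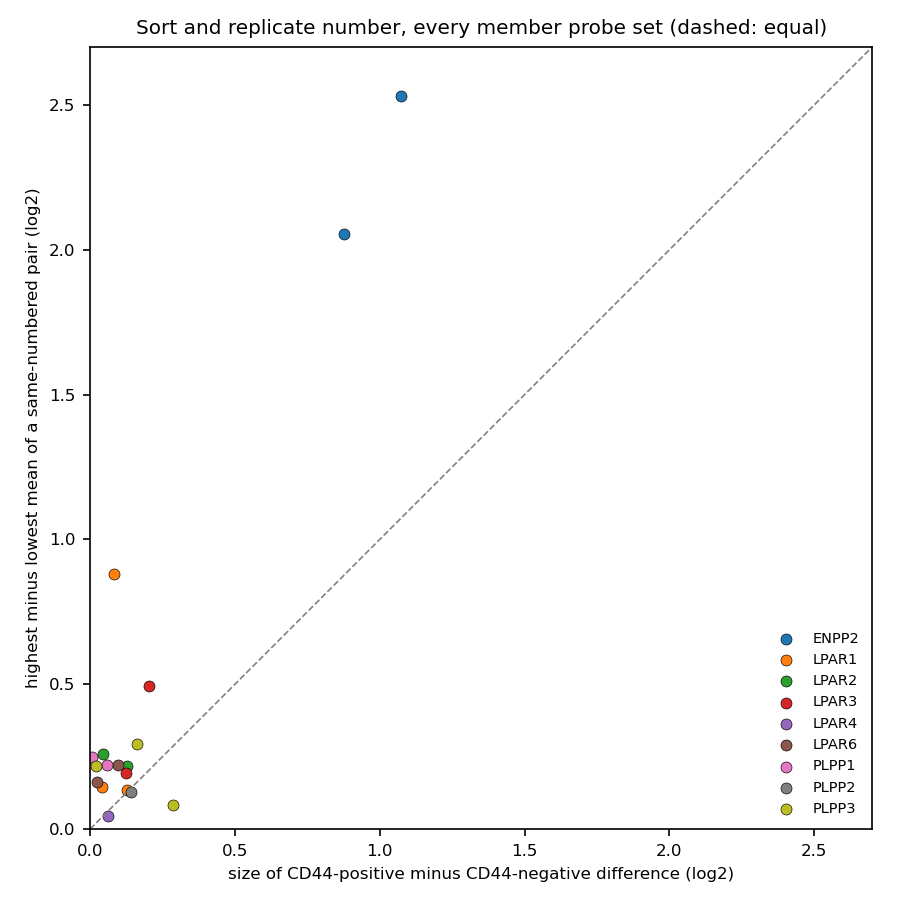
Span between the highest and lowest mean of a same-numbered pair (log2, vertical axis) against the size of the CD44-positive minus CD44-negative difference (log2, horizontal axis), 1 point for each member probe set, with a dashed line where both are equal. Both ENPP2 probe sets stand apart from the rest, at spans of 2.53 and 2.05 and differences of 1.07 and 0.88. A span is taken over 3 means and a difference over 2, so the line is only a guide.

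The wider pathway was read from 94 genes, 90 of them measured and 69 above the dim limit, each by its brightest probe set. None passed between the sorts, with or without the block, where 2 and 10 of all 19775 genes did (0.0101% without the block). At an unadjusted p under 0.05 there were 2 without the block, against 2.19% of all genes, and 6 with it, against 5.99%. The list's median difference was 0.0042, with 47 genes higher and 43 lower, beside -0.00082 over all genes. The groups did not overlap in 5 of the 90, against 6.25% of all genes.

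In each group of the pathway the member with the largest difference above the dim limit is named. Among 21 genes of lysophosphatidic acid production it was PLAAT3, a phospholipase and acyltransferase, at 6.41, 6.27 and 6.03 in the CD44-positive and 5.40, 5.39 and 5.59 in the CD44-negative arrays, without overlap. It differed by 0.78 ± 0.12 (SE, limma, adjusted p = 0.573 without and 0.119 with the block). Among 14 genes of breakdown and reacylation it was LPCAT2, a lysophospholipid acyltransferase, at 0.21. Among 5 other ENPP genes it was ENPP1, which makes pyrophosphate from ATP, at 0.29, with pair values of 0.34, 0.24 and 0.28. Among 11 other lipid and related receptors it was PTAFR, the receptor of platelet-activating factor, at -0.13. Among 20 effectors it was NHERF2, a scaffold that binds LPAR2, at -0.29. Among 19 response genes it was ACTA2, smooth muscle actin, at 0.44 with a dim CD44-negative mean of 5.05. Of these, only PLAAT3 had groups without overlap.

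By replicate number, 11 of the 90 genes passed limma's F test in the blocked fit, or 12.2%, where 3.81% of all genes did. They included 5 of the 19 response genes. EGR1, an immediate early transcription factor, stood at 5.14, 5.84 and 8.88 in the CD44-positive and at 5.60, 5.18 and 9.42 in the CD44-negative arrays, so both replicates numbered 3 were far above the rest (adjusted p = 0.00245). FOS and IER2, also immediate early genes, and CCN1, a matricellular YAP target, were likewise highest for number 3. CCN2 was lowest for number 2, with pair means of 6.57, 5.37 and 6.38. ENPP1 followed the order of ENPP2, with pair means of 7.26, 7.59 and 6.70 (adjusted p = 0.00991), and PLPP5, a phosphatase related to the 3 above, ran against it at 7.16, 6.21 and 7.61 (adjusted p = 0.0121). The remaining 4 were NHERF2, ENPP5, ARHGEF12 and ARHGEF1. Of the 11, ENPP5 was under the dim limit on all 6 arrays, and FOS was under it on all but the 2 arrays numbered 3, so the size of their differences is not read.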

How the data were processed

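The deposited table holds intensity values on a linear scale that the authors had processed with RMA (which corrects background, makes array distributions alike and summarises probes), per the submitters' processing notes. Its version and any genome build are not given in the sources used here. Since the planned design assumed log2 values, log2 was taken with no pseudocount. RMA can compress differences near background. Of 54675 probe sets, 62 controls were left out. The platform annotation named 1 gene for the members' probe sets, with symbols updated through RefSeq. A gene's main probe set is the one with the highest mean.

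Every probe set was tested with limma 3.58.1 (lmFit and eBayes under R 4.3.3) in two-sided tests, Benjamini-Hochberg adjusted over all 54613 and a threshold of 0.05. Python 3.11.15 with numpy 2.4.6, pandas 2.3.3 and matplotlib 3.10.9 made tables and figures. Errors are SDs over 3 arrays or limma's SE. The fit was first tested on simulated data. The number of arrays limits the precision.

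With each group's mean removed, same-numbered arrays correlated at 0.392, 0.533 and 0.557 over all probe sets, and others at -0.386 to -0.058. Removing the means makes the others negative on average where same-numbered arrays correlate positively, so they are not separate evidence. From the same-numbered values, the shared numbers were taken to pair the arrays. The pairing comes from the data, not the labels. The members, pathway lists and rules were chosen with earlier results of these data known. All members were named, with the pathway gene of the largest difference in each sublist and the 5 nearest profiles to ENPP2. The single marker genes, SELENOP and the genes with replicate number differences were named after their values were seen. Scaling, filters, probe set choice, variance models, array weights, the block and left-out arrays were the alternatives.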

Additional observations from a re-analysis of the deposited data

How the results depend on the processing

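No member passed the test between the sorts under any of the 21 alternatives, 3 of which, the combinations of the replicate block with another setting, were added after seeing the data. The smallest adjusted p of any member difference followed was 0.147, for ENPP2 without pair 2 in limma with the block; the range for its brighter probe set was 0.147 to 1.00. The ENPP2 difference stayed positive in all, from 0.47 to 1.94. The count of probe sets passing, 5 in the planned fit, was 28 with the replicate block, 0 with 1 probe set per gene above the 30th or the 50th percentile, 0 with the mean of probe sets, 1 after dropping the _s_at and _x_at probe sets, and 0 under a variance trend and robust moderation. It was 8 with the 30th percentile filter, 165 with a variance trend and robust moderation, and 33 when arrays were weighted, where each went with the block. Leaving out an array or a pair gave 0 to 87. The block itself changed no call of a member or pathway gene. The pathway count of 0 became 1, PLAAT3, with the block and a variance trend and, over left-out arrays or pairs, ran from 0 to 1. The members' median difference, -0.016, moved by less than its spread over pairs. Small differences changed sign. With the mean of probe sets LPAR1 was 0.057 and PLPP1 -0.025, with array weights LPAR2 was 0.017 and PLPP1 -0.021, and with array weights and the block LPAR2 was 0.0014 and PLPP1 -0.0015. Over left-out arrays and pairs LPAR1 ran from -0.11 to 0.046, LPAR2 from -0.15 to 0.079, LPAR6 from -0.0037 to 0.22, PLPP1 from -0.11 to 0.068 and PLPP3 from -0.27 to 0.23. None of these passed, and the cause was not tested. With 3 arrays in a group and no detection calls, differences of dim probe sets cannot be sized.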
